A study of Mus musculus with 32 samples.

Results

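The genes described here encode the parts of the Wnt signalling pathway that a cell uses to send, receive, modify and relay a Wnt signal. They were chosen by name: every gene whose symbol begins with Wnt, Fzd, Sfrp, Dkk or Rspo followed by a number, together with a short list of single genes that runs from the co-receptors Lrp5 and Lrp6 to the nuclear factor Lef1. The rule took 45 of the 20560 genes in the deposited table. They are 15 ligands, 9 receptors and co-receptors, 7 secreted antagonists, 3 R-spondins, 2 secretion factors, 5 cytoplasmic proteins and 4 nuclear factors. Wif1 and Dkk1 were not analysed here.

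RNA was sequenced from 3T3-L1, a mouse embryonic fibroblast line of preadipocytes that turns into fat-storing cells under hormones. The knockdown arm carried the genotype label Zbtb9 knockdown, made with 2 separate short hairpin RNAs called shRNA 1 and shRNA 2, and the other arm carried a scramble hairpin as control. Both arms went through the same adipogenic differentiation, started after confluence at day 0 with dexamethasone, isobutylmethylxanthine and insulin, continued in insulin from day 3 and in plain medium from day 7. Libraries were made at days 0, 3, 7 and 11, with 4 control libraries, 2 of shRNA 1 and 2 of shRNA 2 on each day, or 32 in all. The labels call them biological replicates of this 1 cell line, and the p-values measure the spread between these libraries. All cells are cultured 3T3-L1 cells, so the comparisons hold no tissue and no animal.

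Wnt proteins are secreted lipid-modified ligands. The acyltransferase Porcn adds the lipid and the carrier Wls brings the ligand to the cell surface, where it binds a Frizzled receptor together with Lrp5 or Lrp6. In the canonical branch this stops a complex of Axin1, Apc and Gsk3b from marking β-catenin (Ctnnb1) for destruction, and β-catenin then works with Tcf7, Tcf7l1, Tcf7l2 and Lef1 at target genes. Secreted Frizzled-related proteins such as Sfrp2 bind Wnt ligands outside the cell, and R-spondins strengthen the signal by keeping receptors at the surface. In preadipocytes canonical Wnt signalling is known as a brake on fat cell formation.

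Levels are given as normalized reads, which are whole reads rebuilt from the deposited log2-scale values and divided by the library's size factor. Log2 changes are differences of the mean deposited values ± SE from limma, and a gene is called where the Benjamini-Hochberg adjusted p over all genes tested is under 0.05. For knockdown against control, member calls lost in another fit are named beside the gene, other than those lost with a term for the replicate number. The check of the pairing names the calls that held with that term. For the test of whether the knockdown difference changed with time only counts are given, and for the other comparisons lost calls are named only in part. Genes were tested where 2 to the power of the deposited value reached 10 in at least 4 libraries. Of the 45 members, 29 were tested in at least 1 comparison and 16 in none. Wnt10a and Tcf7 were tested on days on which some libraries lay under that level, and every library of the other tested members reached it on the days tested. The deposited values are drawn towards each gene's mean, which understates changes of genes with few reads.

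Libraries held 22280363 to 31073726 reads in genes. Zbtb9 itself was covered by few reads, and it had 13.5 to 14.9 normalized reads in control and 4.62 to 10.6 in knockdown libraries at day 0. Taking the 4 days as 1, its mean in the knockdown arm was 52.2% of that in the control arm, but the libraries labelled shRNA 1 of day 11 had 8.17 and 19.3 normalized reads, the higher of them inside the control range of 12.1 to 19.96, and those of shRNA 2 had 2.13 and 4.25. Of the 17 members called at day 11, 12 had a larger change with shRNA 1 than with shRNA 2. With shRNA 2 alone 13 of them were called, and Gsk3b, Lef1, Sfrp2 and Dkk3 were not. Zbtb9 was called lower at day 7, with a log2 change of -0.35 ± 0.12 (limma adjusted p 0.0288). It was not called at day 0 (-0.21, adjusted p 0.271) or day 11 (-0.28, adjusted p 0.173), and not tested at day 3, where the arms overlapped (6.35 to 12.6 in control, 0 to 8.99 with knockdown). Of its annotated exon bases 84.4% lie also in another gene. All 8 adipocyte markers (Adipoq, Plin1, Fabp4, Cfd, Pparg, Cebpa, Lpl and Cidec) were called higher with knockdown at days 3, 7 and 11, and at day 0 Lpl alone was. Their summed level was 19717 to 20316 normalized reads in control and 21954 to 23542 in knockdown libraries at day 0, most of it Lpl, and 47465 to 51561 against 129737 to 200747 at day 7. At day 11 it was 54958 to 64899 against 113648 to 140491. The 8 preadipocyte or fibroblast markers summed to 710247 to 751713 in control and 582686 to 689560 in knockdown libraries at day 0. Of these only Col1a1 was called there, lower by -0.28 (limma adjusted p 0.0201), while Dlk1 and Fn1 had 0.048 and -0.010. At day 7 the sums were 503437 to 550759 against 413506 to 465306, and 6 markers were called lower. At day 3 (279495 to 309448 against 245475 to 333164) and day 11 (644059 to 733494 against 521704 to 666540) the arms overlapped, with 1 marker called higher and 2 lower at day 3 and 3 lower at day 11. The 3 cartilage markers, nearly all Sox9, summed to 2357 to 2526 against 1667 to 1927 at day 3 and 2355 to 2569 against 1049.9 to 1569 at day 7, and Sox9 was called lower on both days. At day 0 (6563 to 7070.4 against 5772 to 7504) and day 11 (2100.1 to 2703 against 1219.6 to 2357) the arms overlapped and Sox9 was not called. How far the knockdown differences below move with this state of the cells was not tested. In bulk RNA, fewer cells of a type and less RNA per cell cannot be told apart. The macrophage, endothelial and epithelial lists summed to at most 44.3, 48.7 and 26.1 normalized reads in any library.

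Promoters from RefSeq are shown for Sfrp2, Wnt6, Fzd1 and Fzd4, the 4 members with the largest called knockdown changes among those with 1 listed start. Rspo2 and Dkk3 have no listed promoter. Sfrp2, Wnt6 and Fzd1 were lower with knockdown at day 7 and Fzd4 was higher. Each line is the 250 bases before the start on the gene's own strand in GRCm38.p6, read 5′ to 3′, from chr3:83766071-83766320, plus strand (Sfrp2), chr1:74771642-74771891, plus strand (Wnt6), chr5:4758217-4758466, minus strand (Fzd1) and chr7:89404116-89404365, plus strand (Fzd4). Capitals mark matches to 1 of 3 motifs, searched on both strands.
Sfrp2: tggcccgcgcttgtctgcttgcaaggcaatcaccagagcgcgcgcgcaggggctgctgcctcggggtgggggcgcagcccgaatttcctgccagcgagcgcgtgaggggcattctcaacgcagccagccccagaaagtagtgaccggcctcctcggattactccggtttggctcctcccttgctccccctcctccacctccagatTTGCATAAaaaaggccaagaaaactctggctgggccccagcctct
Wnt6: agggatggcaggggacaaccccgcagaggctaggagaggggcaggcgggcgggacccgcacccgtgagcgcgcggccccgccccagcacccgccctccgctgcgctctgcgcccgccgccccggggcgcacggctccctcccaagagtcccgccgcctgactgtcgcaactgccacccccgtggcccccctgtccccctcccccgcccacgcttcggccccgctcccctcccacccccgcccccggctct
Fzd1: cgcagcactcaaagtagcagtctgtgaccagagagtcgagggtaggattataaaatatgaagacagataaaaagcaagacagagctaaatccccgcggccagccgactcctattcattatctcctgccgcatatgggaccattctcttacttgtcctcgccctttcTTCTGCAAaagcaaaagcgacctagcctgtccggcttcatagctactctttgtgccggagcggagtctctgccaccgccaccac
Fzd4: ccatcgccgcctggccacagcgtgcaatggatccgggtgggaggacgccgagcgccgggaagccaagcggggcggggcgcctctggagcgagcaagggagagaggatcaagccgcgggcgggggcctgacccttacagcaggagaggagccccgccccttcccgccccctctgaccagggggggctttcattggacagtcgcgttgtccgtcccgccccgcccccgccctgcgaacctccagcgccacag
The motifs were the TCF/LEF words made of CTTTG and 2 further letters that are each A or T, the C/EBP word TTGCNNAA, where N is any base, and the direct repeat made of 2 copies of AGGTCA with 1 base between them. Both capital stretches are C/EBP words, which begin 45 bases before the Sfrp2 start and 84 bases before the Fzd1 start. No TCF/LEF word or direct repeat lies in these 4 windows. Over the 28 members with a listed promoter and their 37 starts, 13.5% of starts held a TCF/LEF word and 8.11% a C/EBP word. Among all 32851 listed promoters the shares were 14.8% and 9.56%, and 0.0335% held the direct repeat, which no member start did. These are matches of letters and not measured binding.

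In control cells most tested members changed with differentiation, as most genes did. Between day 0 and day 3, 24 of 29 members were called (82.8%, against 76.6% of all genes tested), with 9 higher and 15 lower, where 38.3% and 38.2% of all genes were called in those directions. With libraries rescaled to equal totals the all-gene median of this comparison went from 0.0022 to -0.12, and the members split into 6 higher and 18 lower. From day 3 to day 7, 23 of 29 were called (74.2% of all genes), 9 higher (background 37.6%) and 14 lower (36.6%). From day 7 to day 11, 22 were called (55% of all genes), 14 higher (28.9%) and 8 lower (26.1%). Both counts include Tcf7, which was tested only through libraries of the later days, and without it 22 of 28 (8 higher, 14 lower) and 21 of 28 (14 higher, 7 lower) were called. At day 11 against day 0, 21 were called (64.6% of all genes), 5 higher (33%) and 16 lower (31.6%). On the deposited log2 scale Sfrp2 had the largest changes of any member, a fall at day 3 and a rise by day 7. Wnt4 had the largest rise at day 3. By the ratio of mean normalized reads, Rspo2 rose further from day 7 to day 11 than Sfrp2 did from day 3 to day 7.

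With the 2 hairpins pooled, few members were called with knockdown before differentiation and more on the later days, as for all genes. At day 0, 3 of 28 tested members were called (3.25% of all genes), with Fzd3 and Fzd4 higher (background 0.817%) and Wnt4 lower (2.44%). With libraries rescaled to equal totals 4 were higher and 1 lower, and the share of calls over all genes that were higher was 43.3% in place of 25.1%. At day 3 the count was 10 of 28 (26.7% of all genes), 3 higher (14.6%) and 7 lower (12.1%). At day 7, 16 of 29 were called (47.6% of all genes), 7 higher and 9 lower, where 24.9% and 22.6% of all genes were called in those directions. At day 11, 17 of 29 were called (33% of all genes), 6 higher and 11 lower, against 16.8% and 16.2% of all genes. These include Tcf7, which passed the filter through the arm where it is high, and without it 16 of 28 were called, 5 higher and 11 lower. At day 0 the tested members had a median log2 change of -0.088 against -0.0060 over all genes tested. On the later days, in order, these pairs of medians were 0.0035 against 0.0046, -0.058 against 0.0062 and -0.098 against -0.012. With the 2 hairpins fitted as separate groups, 19 of 28 members were called at day 0 (25.3% of all genes), and with shRNA 1 or shRNA 2 alone 14 (34.7% of all genes) and 12 (17.6%) were. Among the receptors the calls went both ways, with Fzd1, Fzd2 and Fzd7 lower and Fzd3, Fzd4 and Fzd5 higher at day 7.

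**Figure D1:**
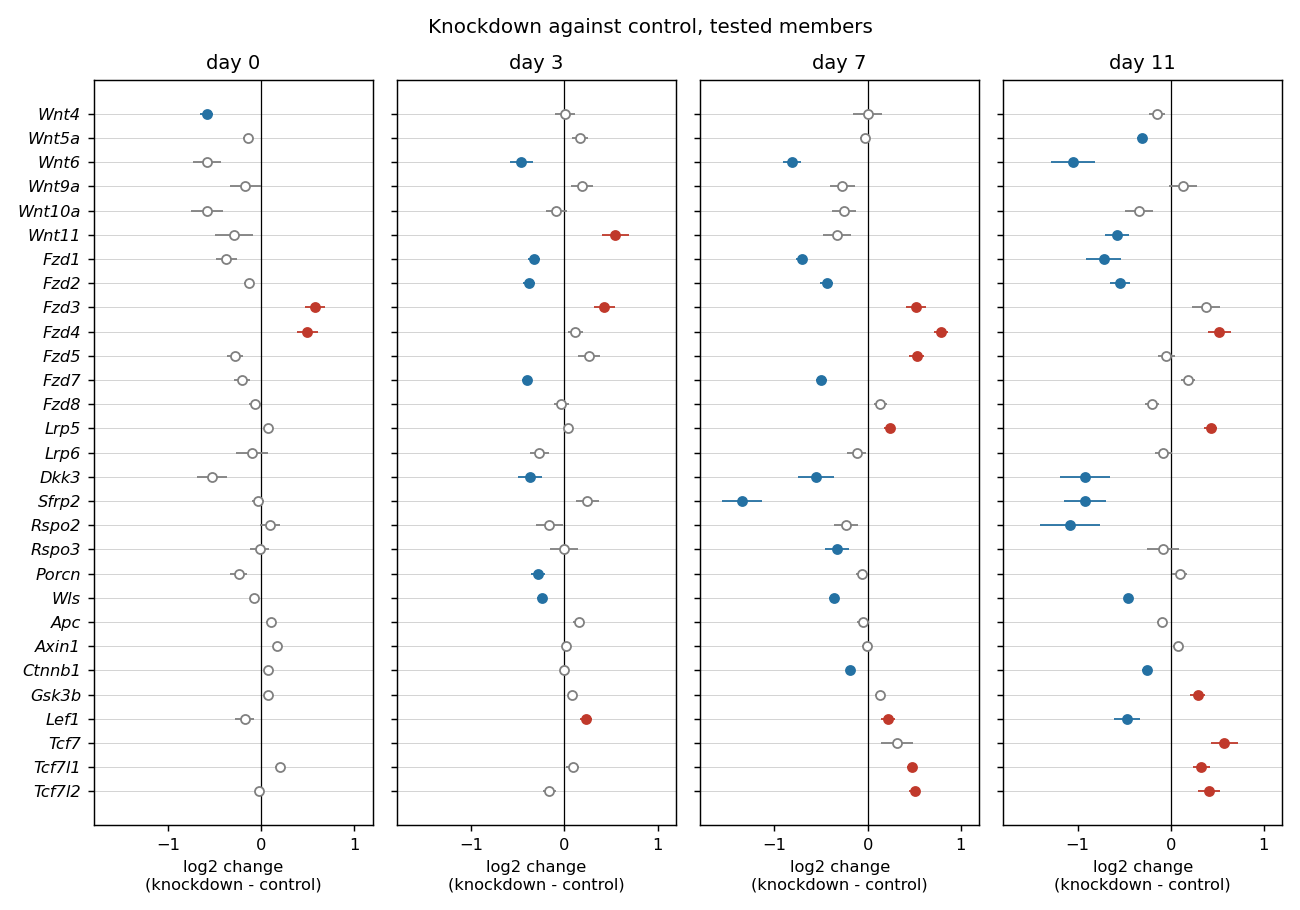
Log2 change of the deposited values, knockdown minus control, with SE bars, for the 29 tested members at days 0, 3, 7 and 11. Filled points passed an adjusted p of 0.05 (red higher, blue lower) and open points did not. The number of filled points is 3, 10, 16 and 17 in order of day.

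Wnt6, Wnt5a and Wnt4 were the abundant ligands. Per kilobase of annotated exon, control cells at day 0 had 500 ± 78.6 normalized reads of Wnt6, 341 ± 17.6 of Wnt5a and 108 ± 6.08 of Wnt4 (SD, n = 4). The ranges of these 3 did not overlap at day 0, and the next ligands, Wnt10a and Wnt9a, had 21.1 ± 1.24 and 17.3 ± 3.24 with overlapping ranges. At day 3 Wnt4 led with 690.3 ± 35.2, ahead of Wnt6 at 245 ± 19.7 and Wnt5a at 68.1 ± 8.80. At day 11 Wnt6 (233 ± 35.5) and Wnt5a (186 ± 10.3) overlapped and both were above Wnt4 (119.8 ± 11.0).

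Wnt6 (ENSMUSG00000033227, chr1:74771892-74785322, plus strand in GRCm38), a ligand that can act through β-catenin, was called lower in knockdown cells at days 3, 7 and 11. Before differentiation, at day 0, normalized reads were 1179.5, 1058, 1272 and 874 in control libraries, shRNA 1 libraries had 819.9 and 878 and shRNA 2 libraries 564 and 614. At day 3 the values were 475, 542, 555 and 575 in control, 378 and 287 with shRNA 1 and 379 and 494 with shRNA 2. At day 0 shRNA 1 replicate 2 lay just above the lowest control, and at day 3 shRNA 2 replicate 2 did so. At day 7 control libraries had 838, 913, 971 and 957, shRNA 1 libraries 553 and 403 and shRNA 2 libraries 589.5 and 484. At day 11 they had 598, 534, 411 and 501, 198 and 154 and 397 and 215. On both later days every knockdown library was under every control. The log2 changes were -0.58 ± 0.15, -0.46 ± 0.12, -0.81 ± 0.096 and -1.05 ± 0.24 in order of day (limma adjusted p 0.0796, 0.0161, 6.06e-06 and 0.00989), the first of them not called. The knockdown difference of no later day was called against that of day 0 (adjusted p 0.863, 0.55 and 0.214). Knockdown libraries thus had 55.2% of the control mean at day 7 and 47.1% at day 11. With shRNA 2 alone the day 11 value was -0.72 (adjusted p 0.0289). Only the day 3 call was lost with a library left out, without control replicate 4 (adjusted p 0.0533).

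Wnt4 (ENSMUSG00000036856, chr4:137277489-137299726, plus strand), a ligand often placed in the branches that bypass β-catenin, had the largest rise of any member in control cells at day 3. Control libraries had 458, 423, 484 and 446 normalized reads at day 0 and 3036, 2713, 2839 and 2992 at day 3. They had 720.3, 836, 934 and 776 at day 7 and 465, 511, 469 and 565 at day 11. All 4 libraries of day 3 stood above every library of the other days. The control changes were 2.54 ± 0.065 from day 0 to day 3, -1.75 ± 0.065 from day 3 to day 7 and -0.66 ± 0.065 from day 7 to day 11 (limma adjusted p 7.62e-27, 7.50e-22 and 2.11e-10). Knockdown lowered Wnt4 at day 0, where shRNA 1 libraries had 275 and 287 and shRNA 2 libraries 285 and 318, all under every control, with a log2 change of -0.59 ± 0.070 (adjusted p 0.00211). At day 3 shRNA 1 libraries had 3353 and 3386, above the controls, and shRNA 2 libraries 2622 and 2401, below them. At day 7 shRNA 1 libraries had 887 and 1121, inside and above the control range, and shRNA 2 libraries 654 and 672, below it. With both hairpins together the change was 0.0072 at day 3 and 0.0006 at day 7, but shRNA 2 alone gave -0.20 (adjusted p 0.00229) and -0.28 (adjusted p 0.0153) against control. At day 11 the values were 472 and 387 and 469.9 and 473, with shRNA 1 replicate 2 under the control range and the others inside it, and the change was -0.15 ± 0.086 (adjusted p 0.22).

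Wnt5a (ENSMUSG00000021994, chr14:28504750-28527448, plus strand), the best known non-canonical ligand, fell at day 3 and partly returned. Control libraries had 2849.9, 2684, 2536 and 2587 normalized reads at day 0, 466, 495, 623 and 549 at day 3, 884, 865, 877 and 902 at day 7 and 1564, 1401, 1388 and 1454 at day 11. No range overlapped that of another day. The control change was -2.21 ± 0.059 from day 0 to day 3 and -0.84 ± 0.059 at day 11 against day 0 (limma adjusted p 3.43e-26 and 3.91e-14). With shRNA 1 the libraries had 2298 and 2315, 569 and 568, 876 and 889.8 and 1189 and 1128 in order of day. With shRNA 2 they had 2451 and 2558, 673 and 599, 828 and 866 and 1152 and 1157. Only day 11 was called, at -0.31 ± 0.054 (adjusted p 0.00109), with all 4 knockdown libraries under the controls. At days 0, 3 and 7 the changes were -0.14, 0.17 and -0.027.

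Wnt11 (ENSMUSG00000015957, chr7:98835112-98855195, plus strand), another ligand of the non-canonical branch, had few reads and changed in opposite directions on 2 days. At day 3 control libraries had 19.99, 17.98, 24.1 and 24.4 normalized reads, shRNA 1 libraries 29.5 and 38.1 and shRNA 2 libraries 51.0 and 69.2, all above control. At day 11 control libraries had 30.9, 22.4, 26.6 and 39.0, shRNA 1 libraries 8.17 and 9.08 and shRNA 2 libraries 18.1 and 9.56, all below control. At day 0 the values were 14.3, 20.2, 38.5 and 4.97, 6.47 and 11.5 and 7.03 and 14.8, and at day 7 12.8, 40.6, 16.5 and 21.9, 10.1 and 10.4 and 14.7 and 12.7. The log2 change was 0.55 ± 0.14 at day 3 (limma adjusted p 0.0119) and -0.58 ± 0.13 at day 11 (adjusted p 0.0058), and -0.29 and -0.33, neither called, at days 0 and 7. Fitted by voom to the rebuilt reads the called changes were 1.04 and -1.40. The day 3 call was lost with shRNA 1 alone (adjusted p 0.114), and the day 11 change with shRNA 2 alone was -0.48 (adjusted p 0.0242). Of the annotated exon bases of Wnt11, 8.8% are also exon of a gene on the other strand, and whether counting used strand is not given in the sources used here.

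Wnt9a and Wnt10a were the other tested ligands. Wnt10a, which acts through β-catenin, went from 52.2 ± 3.06 normalized reads in control libraries at day 0 to 11.6 ± 3.33 at day 3 and 11.5 ± 7.13 at day 11 (SD, n = 4). The fall at day 3 was -1.02 ± 0.13 (limma adjusted p 2.01e-08), or -2.17 by voom. In knockdown libraries Wnt10a had 26.1 ± 12.3 at day 0, with a change of -0.59 that was not called (adjusted p 0.0928). Wnt9a stayed between 33.2 ± 7.04 and 60.5 ± 11.1 in control libraries and was not called with knockdown on any day.

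**Figure D2:**
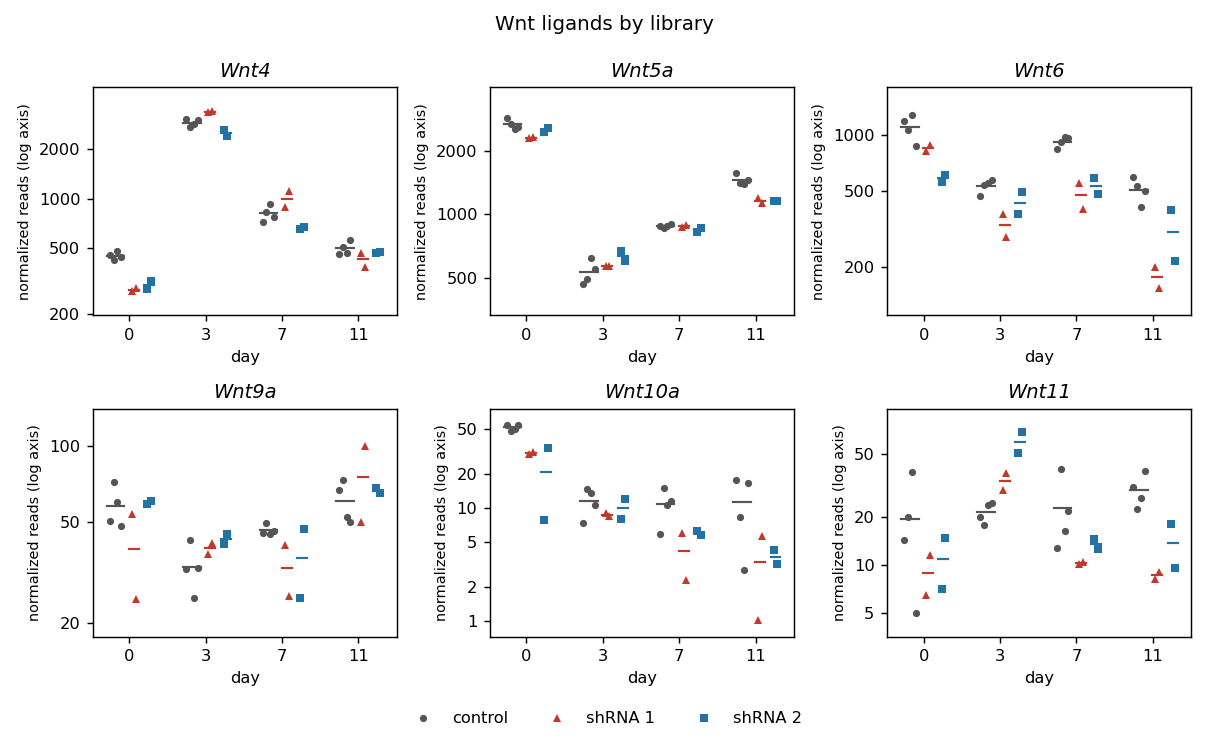
Normalized reads of the 6 tested Wnt ligands in each of the 32 libraries, by day, on log axes. Points are libraries (grey circles control, red triangles shRNA 1, blue squares shRNA 2) and short lines are means. Wnt4 peaks at day 3, Wnt5a is lowest there, and the Wnt6 libraries of both hairpins lie under the controls at days 7 and 11.

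Fzd1 was the most abundant Frizzled on each day. Per kilobase of exon, control cells at day 0 had 1699.6 ± 104 normalized reads of Fzd1, 919 ± 48.9 of Fzd2, 276 ± 20.01 of Fzd7, 135 ± 10.6 of Fzd8 and 134 ± 5.27 of Fzd5 (SD, n = 4). Fzd8 and Fzd5 overlapped. Fzd4 had 42.5 ± 6.77 and Fzd3 13.2 ± 2.33, so the 2 receptors that knockdown raised at day 0 were the least abundant ones. By day 7 the control order was Fzd1 (915 ± 20.5), Fzd2 (324 ± 23.3), Fzd7 (231 ± 10.1), Fzd8 (71.0 ± 2.34), then Fzd5 and Fzd4 with 49.3 ± 1.70 and 49.2 ± 3.77, which overlapped, and Fzd3 (6.86 ± 0.96).

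In Fzd1 (ENSMUSG00000044674, chr5:4753839-4758035, minus strand) all 4 knockdown libraries were under all 4 controls on each of the 4 days, with shRNA 1 the lower hairpin, and the difference was called at days 3, 7 and 11. Normalized reads at day 0 were 7464, 6970, 7506 and 6592 in control libraries, 4538 and 4720 in shRNA 1 libraries and 6458 and 6368 in shRNA 2 libraries. The day 0 change of -0.37 ± 0.12 was not called (limma adjusted p 0.122). At day 3 control libraries had 4458, 5011, 4712 and 4943 normalized reads, shRNA 1 libraries 3438 and 3479.9 and shRNA 2 libraries 3946 and 4263. At day 7 they had 3735, 3804, 3904 and 3918, 2238 and 2057 and 2465 and 2506. At day 11 they had 5972, 5472, 5256 and 5449.9, 3163 and 2192 and 4289 and 3966. The log2 changes of days 3, 7 and 11 were -0.33 ± 0.064, -0.71 ± 0.060 and -0.72 ± 0.19 (limma adjusted p 0.00211, 1.60e-07 and 0.0204). The day 11 call was lost without control replicate 1 (adjusted p 0.0557) or shRNA 1 replicate 1 (0.0549), and shRNA 2 alone gave -0.41 (adjusted p 0.0253) there.

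Fzd2 (ENSMUSG00000050288, chr11:102604396-102608058, plus strand) fell in control cells at day 3 and was lower still in knockdown cells. Control libraries had 3522, 3177, 3516 and 3248 normalized reads at day 0 and 827, 922, 952 and 923 at day 3, a change of -1.81 ± 0.052 (limma adjusted p 6.46e-26). They had 1091, 1141, 1263 and 1256 at day 7 and 1459, 1353, 1275 and 1324 at day 11, above day 3 and under day 0. The shRNA 1 libraries had 2860 and 3002 at day 0, 673 and 640.1 at day 3, 967 and 836 at day 7 and 871 and 734 at day 11. With shRNA 2 they had 3195 and 3221, 747 and 679, 824 and 824 and 1150.4 and 920.3. The arms did not overlap at days 3, 7 and 11. Knockdown changes were -0.38 ± 0.064, -0.44 ± 0.069 and -0.55 ± 0.11 on those days (adjusted p 0.000625, 8.44e-05 and 0.00307) and -0.13 at day 0 (adjusted p 0.21). At day 11 shRNA 2 alone gave -0.37 (adjusted p 0.00301).

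Fzd7 (ENSMUSG00000041075, chr1:59482424-59486955, plus strand) was lower with knockdown at days 3 and 7 and not at day 11. At day 3 control libraries had 1679, 1706, 1732 and 1632 normalized reads, shRNA 1 libraries 1250.4 and 1375 and shRNA 2 libraries 1173 and 1254. At day 7 they had 1081, 981, 1074 and 1043, 739 and 699.5 and 693 and 767. At day 11 they had 1150.2, 1108, 1171 and 1104, 1371 and 1460.3 and 1158 and 1221, so the knockdown libraries had moved to or above the control range. The changes were -0.40 ± 0.053, -0.50 ± 0.061 and 0.19 ± 0.071 (limma adjusted p 0.000106, 6.55e-06 and 0.0648). At day 0 the values were 1237, 1297, 1343 and 1133, 924 and 996 and 1160.3 and 1246, with a change of -0.21 ± 0.089 (adjusted p 0.226). The day 3 and day 7 calls held in each of the 20 alternatives run.

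Fzd4 (ENSMUSG00000049791, chr7:89404355-89413134, plus strand), a receptor also used by the ligand norrin, was higher in knockdown cells at days 0, 7 and 11. Control libraries of day 0 had 226, 332, 278 and 306 normalized reads, shRNA 1 libraries 393 and 493 and shRNA 2 libraries 385 and 388. At day 7 they had 353, 295, 330.2 and 343, 626 and 595 and 558 and 625. On both days all knockdown libraries stood above all controls. At day 11 they had 387, 343, 334 and 306, 566 and 374 and 525 and 596, where shRNA 1 replicate 2 lay inside the control range. At day 3 the arms overlapped, with 404, 509, 453 and 525 in control, 499 and 510 with shRNA 1 and 527 and 523 with shRNA 2. The changes were 0.50 ± 0.11, 0.12 ± 0.079, 0.79 ± 0.077 and 0.52 ± 0.13 in order of day (limma adjusted p 0.0411, 0.293, 6.38e-07 and 0.0087). The day 0 call was lost without control replicate 1, control replicate 2, control replicate 3, control replicate 4, shRNA 1 replicate 1 or shRNA 1 replicate 2, and with no filter on low values or without the trend and robust fit (adjusted p from 0.0624 to 0.126).

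Fzd3 (ENSMUSG00000007989, chr14:65192449-65262463, minus strand), a receptor known for cell polarity and axon guidance, was higher at days 0, 3 and 7. Control libraries of day 0 had 157, 149.8, 155 and 213 normalized reads, shRNA 1 libraries 281 and 270 and shRNA 2 libraries 235 and 277. At day 3 they had 232, 216, 185 and 233, 329 and 364 and 246 and 291. At day 7 they had 87.6, 99.4, 70.9 and 93.5, 142 and 124 and 142 and 140.3, and at day 11 101, 74.8, 113 and 108, 158 and 170.3 and 106 and 117. The arms did not overlap at days 0, 3 and 7, and at day 11 the shRNA 2 libraries lay among or just above the controls. The changes in order of day were 0.57 ± 0.11, 0.43 ± 0.11, 0.52 ± 0.11 and 0.38 ± 0.15 (limma adjusted p 0.0189, 0.00983, 0.00112 and 0.0716). The day 0 call was lost without control replicate 1 (adjusted p 0.0733), control replicate 2 (0.0772) or control replicate 3 (0.0772), and the day 3 call with shRNA 2 alone (adjusted p 0.0603).

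Fzd5 (ENSMUSG00000045005, chr1:64730558-64737751, minus strand) was called with knockdown at day 7 and on no other day. Control libraries there had 345, 346, 349 and 323 normalized reads, shRNA 1 libraries 519 and 581 and shRNA 2 libraries 447 and 490, with no overlap. The change was 0.53 ± 0.082 (limma adjusted p 8.09e-05). At day 0 control libraries had 906, 956, 890.5 and 964, shRNA 1 libraries 846 and 868 and shRNA 2 libraries 654 and 673. At day 3 they had 327, 353, 328 and 337, 454 and 529 and 339.8 and 348, and at day 11 433, 476, 474 and 402, 494 and 430.4 and 424 and 378. The day 0 values lay under the controls, most with shRNA 2, and the change of -0.28 ± 0.088 was not called (adjusted p 0.115). Changes at days 3 and 11, neither called, were 0.26 and -0.046, and at day 3 both shRNA 1 libraries were above every control. In control cells Fzd5 had fallen by day 3, with -1.36 ± 0.063 (adjusted p 7.19e-20). An opposite-strand gene shares 17.8% of its annotated exon bases.

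The co-receptors Lrp5 and Lrp6 differed in their course. Lrp5 (ENSMUSG00000024913, chr19:3584828-3686564, minus strand) rose from 5970, 6283, 6345 and 6469 normalized reads in control libraries at day 0 to 24862, 25711, 24493 and 25204 at day 3. It had 21478, 21937, 22581 and 20497 at day 7 and 11443, 11633, 10827 and 12420.2 at day 11. The control change at day 3 was 1.94 ± 0.038 (limma adjusted p 6.00e-31), and no day overlapped another. With shRNA 1 the libraries had 6362 and 6937, 26264 and 26754, 25872 and 23371 and 16157 and 14331 in order of day, and with shRNA 2 6499.7 and 6693, 24548 and 25852, 25434 and 27921 and 15168 and 17367. Knockdown libraries were above all controls at days 7 and 11, with 0.24 ± 0.057 and 0.43 ± 0.068 (adjusted p 0.00278 and 0.000649). Changes at days 0 and 3 were 0.077 and 0.043. Fzd8 was called on no day with knockdown, with changes from -0.20 at day 11 to 0.14 at day 7.

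**Figure D3:**
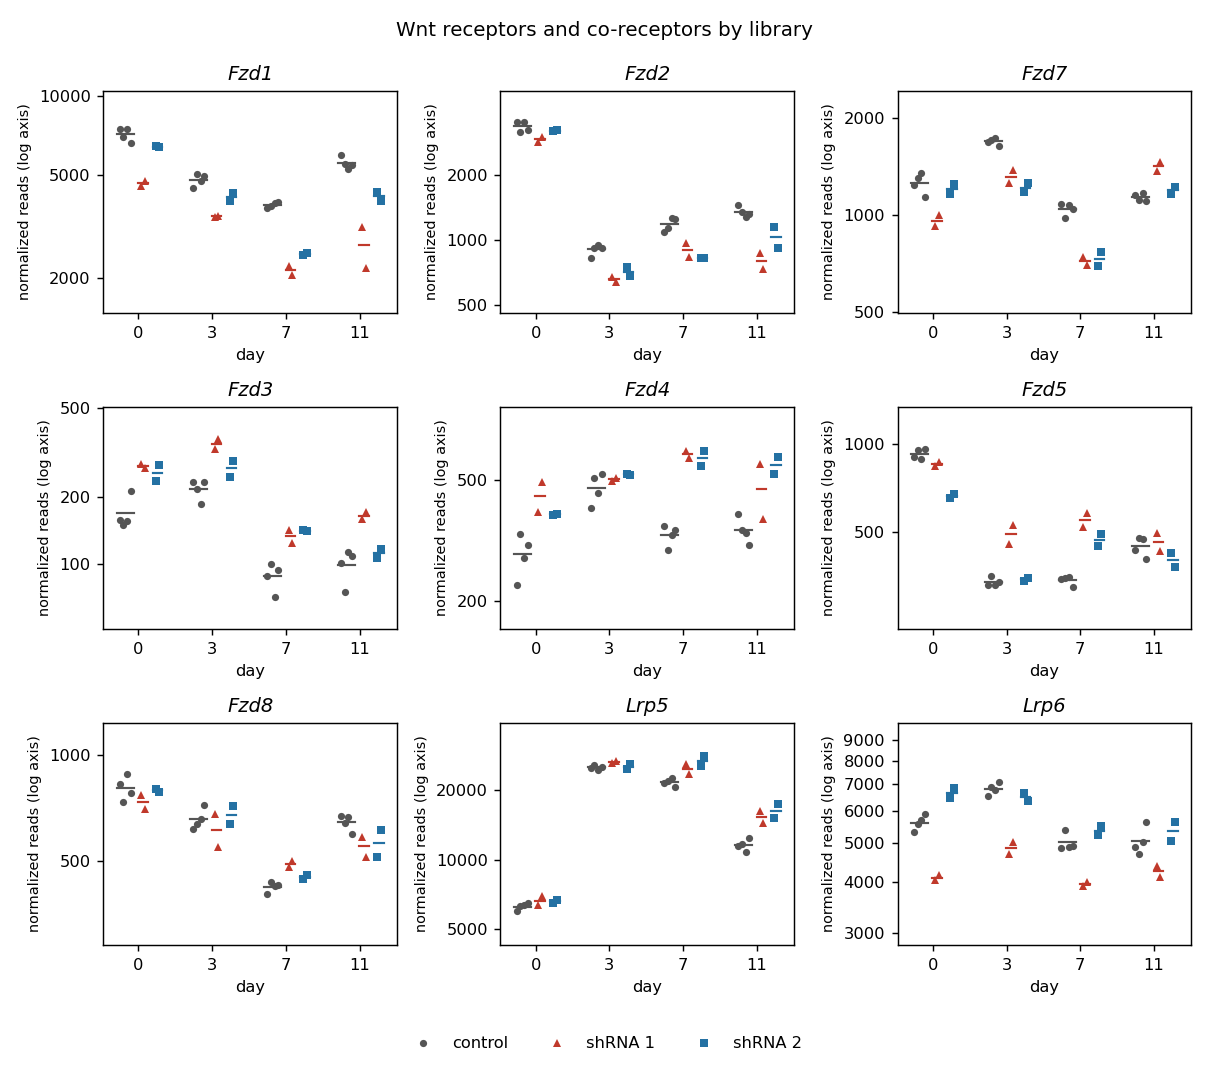
Normalized reads of the 7 tested Frizzled receptors and of Lrp5 and Lrp6 in each library, by day, on log axes, with libraries as points and means as short lines. Knockdown libraries of Fzd1, Fzd2 and Fzd7 lie under the controls at days 3 and 7, those of Fzd3, Fzd4 and Fzd5 above them at day 7, and the Lrp6 libraries of shRNA 1 are under the controls on every day.

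Sfrp2 (ENSMUSG00000027996, chr3:83766321-83774316, plus strand), a secreted protein that binds Wnt ligands, was the only antagonist with many reads. Control libraries had 3746, 3889, 4013 and 3613 normalized reads at day 0, 78.9, 119.5, 105 and 101 at day 3, 996, 953, 969 and 927 at day 7 and 1607, 1291, 1245 and 1222 at day 11. On the deposited log2 scale it changed in control cells by -4.85 ± 0.080 at day 3 (limma adjusted p 1.36e-25). It rose by 2.94 ± 0.080 by day 7 (adjusted p 1.12e-20), and these were the largest changes of any member on that scale. The shRNA 1 libraries had 4049.7 and 4007 at day 0, 145 and 105 at day 3, 596 and 341 at day 7 and 947 and 428 at day 11. With shRNA 2 they had 3482 and 3387, 108 and 142, 297 and 264 and 851 and 627. The arms overlapped at days 0 and 3, and at days 7 and 11 every knockdown library was under every control. Knockdown changes were -0.034 ± 0.063, 0.25 ± 0.13, -1.35 ± 0.21 and -0.92 ± 0.23 in order of day (adjusted p 0.799, 0.169, 0.0011 and 0.0176). At day 7 knockdown libraries had 38.9% of the control mean. The day 11 call was lost with shRNA 1 alone (adjusted p 0.0515) or with shRNA 2 alone (0.103). A gene on the other strand shares 16.1% of the Sfrp2 exon bases.

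Dkk3 (ENSMUSG00000030772, chr7:112116017-112159057, minus strand), a Dickkopf family member whose effect on Wnt signalling varies with the cell, had few reads. Control libraries had 147, 171, 109.8 and 129 normalized reads at day 0, 13.7, 16.9, 16.7 and 26.6 at day 3, 22.6, 47.7, 33.0 and 21.9 at day 7 and 68.3, 41.1, 50.4 and 50.2 at day 11. The control fall at day 3 was -1.87 ± 0.14 (limma adjusted p 3.74e-14), or -2.91 by voom. The shRNA 1 libraries had 73.0 and 57.5, 6.81 and 13.8, 8.12 and 4.64 and 9.19 and 1.14, and with shRNA 2 109.8 and 106, 11.0 and 5.49, 22.0 and 23.4 and 34.0 and 32.9. Only at day 11 did all knockdown libraries lie under all controls, and shRNA 1 was the lower hairpin at days 0, 7 and 11. Knockdown changes were -0.37 ± 0.13, -0.55 ± 0.19 and -0.92 ± 0.27 at days 3, 7 and 11 (adjusted p 0.0485, 0.0275 and 0.0265), and -0.53 at day 0 (adjusted p 0.106). By voom they were -0.99, -1.27 and -2.13. With shRNA 2 alone the day 11 change was -0.40 (adjusted p 0.0666). At day 3 the call was lost without control replicate 2, control replicate 3, control replicate 4, shRNA 1 replicate 1, shRNA 2 replicate 1 or shRNA 2 replicate 2, and on log2 of rebuilt reads plus 1, on log2 of rebuilt reads plus 5, with no filter on low values, with shRNA 1 alone or by voom (adjusted p from 0.0596 to 0.151). At day 7 it was lost without control replicate 2, control replicate 3, shRNA 1 replicate 1 or shRNA 1 replicate 2, and with no filter on low values or with shRNA 2 alone (adjusted p from 0.05 to 0.313), and at day 11 without control replicate 1, control replicate 3, control replicate 4 or shRNA 1 replicate 1, and on log2 of rebuilt reads plus 1, on log2 of rebuilt reads plus 5 or with shRNA 2 alone (adjusted p from 0.055 to 0.0953).

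The R-spondin Rspo2 (ENSMUSG00000051920, chr15:43020794-43170826, minus strand) had few reads in control cells at days 3 and 7 and its day 0 level again at day 11. Control libraries had 117, 157, 130.4 and 118 normalized reads at day 0, 17.9, 10.6, 6.28 and 7.44 at day 3, 7.87, 8.11, 14.6 and 12.7 at day 7 and 168, 159, 151 and 115 at day 11. The changes were -2.24 ± 0.13 at day 3 and 2.36 ± 0.13 from day 7 to day 11 (limma adjusted p 2.76e-17 and 2.79e-17), or -3.66 and 3.74 by voom. With shRNA 1 the libraries had 133 and 130.1, 2.27 and 12.7, 3.04 and 8.12 and 41.9 and 19.3 in order of day. With shRNA 2 they had 133 and 171, 7.99 and 5.49, 7.34 and 5.84 and 96.8 and 95.6. At day 11 all knockdown libraries were under all controls, the shRNA 1 libraries furthest, with a change of -1.08 ± 0.32 (adjusted p 0.0306) and 42.8% of the control mean. Changes on the earlier days were 0.095, -0.16 and -0.24, none of them called. The day 11 call was lost without control replicate 1, control replicate 2, control replicate 3 or shRNA 1 replicate 1 (adjusted p from 0.0696 to 0.081). With shRNA 1 alone the change was -1.67 (adjusted p 5.71e-07), and with shRNA 2 alone -0.49 (adjusted p 0.034).

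Rspo3, the other R-spondin tested, had 53.1, 34.5, 55.3 and 57.7 normalized reads in control libraries at day 7, 25.4 and 37.1 with shRNA 1 and 35.7 and 35.1 with shRNA 2. Control replicate 2 lay within the knockdown values. The change of -0.33 ± 0.13 (limma adjusted p 0.0487) was at the edge of the threshold. It was lost without control replicate 1, control replicate 3, control replicate 4, shRNA 1 replicate 1, shRNA 1 replicate 2, shRNA 2 replicate 1 or shRNA 2 replicate 2, and on log2 of rebuilt reads plus 1, on log2 of rebuilt reads plus 5, with no filter on low values, with shRNA 1 alone, with shRNA 2 alone or by voom (adjusted p from 0.0505 to 0.171). An opposite-strand gene shares 13.1% of the Rspo3 exon bases. In control cells Rspo3 rose by 1.00 ± 0.15 from day 3 to day 7 (adjusted p 1.96e-07).

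Wls (ENSMUSG00000028173, chr3:159839672-159938664, plus strand), the carrier that all secreted Wnt ligands need, was called lower at days 3, 7 and 11. Normalized reads of day 3 were 9133, 8992, 9304 and 9538 in control libraries, 7550.2 and 7293 in shRNA 1 libraries and 8249 and 7928 in shRNA 2 libraries. At day 7 they had 7808, 7314, 7431 and 7499.7, 5598 and 5539 and 6252 and 5794. At day 11 they had 8599, 8338, 8318 and 8099, 6228 and 5679 and 6343 and 5848. The arms did not overlap on any of these days. The changes were -0.25 ± 0.045, -0.36 ± 0.051 and -0.45 ± 0.052 (limma adjusted p 0.00114, 2.64e-05 and 5.95e-05). At day 0 the change was -0.077 ± 0.038 (adjusted p 0.289), with 9721, 9738, 9342 and 9597 in control, 9153 and 8721 with shRNA 1 and 9229.6 and 9252 with shRNA 2. The size of the Wls difference was below that of Wnt6 on each of these days, and its SE was smaller too.

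Porcn, the acyltransferase that lipid-modifies Wnt ligands, was called at day 3 alone with knockdown. Control libraries there had 996, 1122, 1026 and 1029 normalized reads, shRNA 1 libraries 779 and 739 and shRNA 2 libraries 912 and 973. All 4 knockdown libraries were lower, and the change was -0.29 ± 0.078 (limma adjusted p 0.0145). It was lost without control replicate 2 (adjusted p 0.0544), and with shRNA 2 alone (adjusted p 0.107). In control cells Porcn rose to 2270.2, 2257, 2510.1 and 2053 at day 7, 1.07 ± 0.055 above day 3 (adjusted p 2.01e-18), and changed by -1.02 from day 7 to day 11 (adjusted p 2.34e-17).

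**Figure D4:**
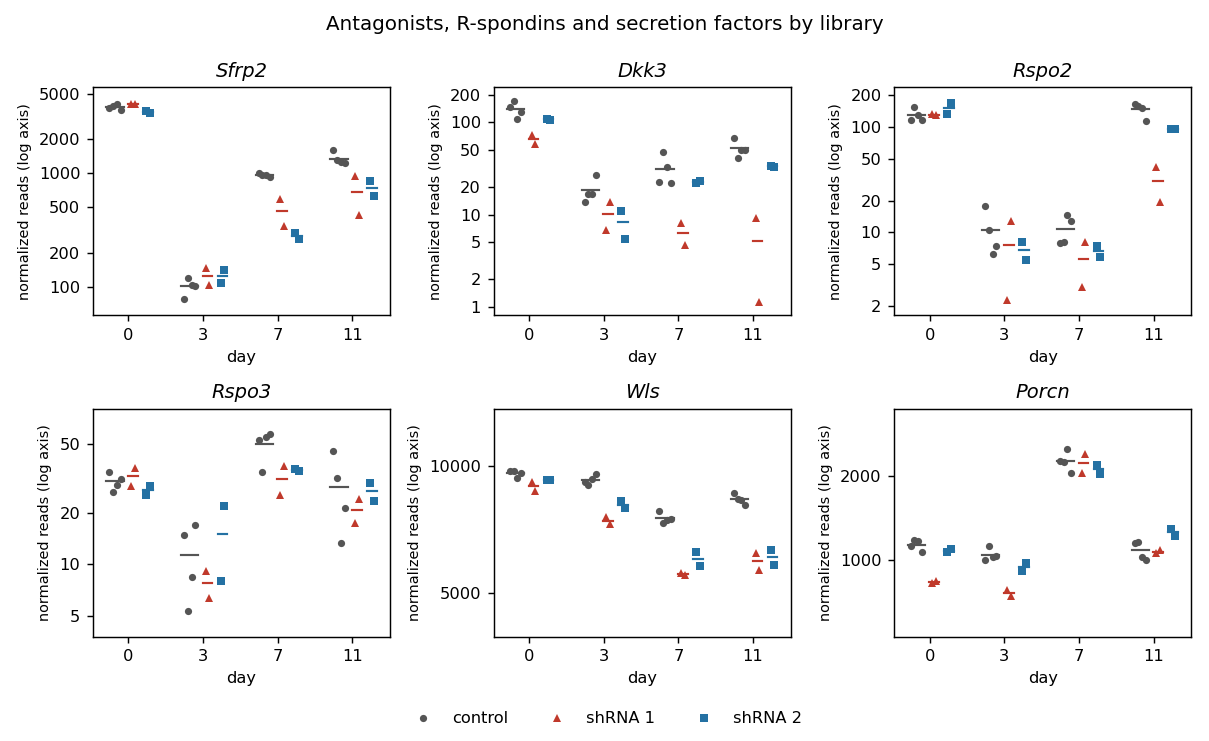
Normalized reads of Sfrp2, Dkk3, Rspo2, Rspo3, Wls and Porcn in each library, by day, on log axes, with libraries as points and means as short lines. Sfrp2 and Rspo2 are low at day 3 in both arms, and their knockdown libraries lie under the controls at day 11.

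Ctnnb1 (ENSMUSG00000006932, chr9:120929216-120960507, plus strand), which encodes β-catenin, had the most reads per kilobase of any member in control libraries at days 0 and 11, with 2711 ± 31.03 normalized reads per kilobase at day 0 (SD, n = 4). At day 7 the control ranges of Ctnnb1 and Lrp5 overlapped. At day 7 control libraries had 11502, 11719, 11639 and 11713 normalized reads, shRNA 1 libraries 10440.1 and 10052 and shRNA 2 libraries 10149.7 and 10093. At day 11 they had 13964, 14746, 14939 and 14727, 12131 and 12053 and 12384 and 12026. The arms did not overlap on either day, and both hairpins gave nearly the same values. The changes were -0.19 ± 0.044 and -0.26 ± 0.049 (limma adjusted p 0.0024 and 0.00207), so knockdown libraries had 87.5% and 83.2% of the control mean. At days 0 and 3 the changes were 0.068 and -0.0002, neither called. At day 0 every knockdown library lay above every control (14685 to 14842 against 13879 to 14218.5). Genes on either strand, Ulk4 among them, share 15.1% of the Ctnnb1 exon bases. Ctnnb1 RNA does not measure the β-catenin protein, which the pathway controls by its breakdown.

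Of the destruction complex genes tested, Gsk3b was called with knockdown and Axin1 and Apc were not. Gsk3b, the kinase that marks β-catenin, had 3530.4, 3386, 3714 and 3853 normalized reads in control libraries at day 11, 5015 and 4907 with shRNA 1 and 3870 and 4140.3 with shRNA 2. All 4 knockdown libraries lay above the controls, the shRNA 1 libraries furthest, and the change was 0.29 ± 0.081 (limma adjusted p 0.0175). The call was lost without control replicate 1 (adjusted p 0.0527) or control replicate 2 (0.0579), and with shRNA 2 alone (adjusted p 0.0603), where the change was 0.14. The scaffolds Axin1 and Apc were called on no day with knockdown, with changes between -0.0080 and 0.16 for Axin1 and between -0.098 and 0.15 for Apc. At day 0 every knockdown library still stood above every control for Axin1 (3131 to 3310 against 2749 to 2958). The same held for Apc (2255 to 2322 against 1991 to 2210), and for Gsk3b at day 7, not called (2966 to 3351 against 2758 to 2962).

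The nuclear factors Tcf7l1 and Tcf7l2 were higher in knockdown cells at days 7 and 11. Tcf7l2 (ENSMUSG00000024985, chr19:55741820-55933654, plus strand) had 952, 996, 958 and 928 normalized reads in control libraries at day 7, 1429 and 1451 with shRNA 1 and 1261 and 1408 with shRNA 2, with no overlap. At day 11 it had 962, 990.4, 917 and 1173, 1339 and 1063 and 1561 and 1525, and shRNA 1 replicate 2 lay within the control range. At day 0 it had 1205, 1364, 1262 and 1307, 1208 and 1235 and 1306 and 1314, and at day 3 921, 868, 939.8 and 937, 731 and 765 and 949 and 822. The arms overlapped on both of those days. The changes in order of day were -0.020 ± 0.052, -0.16 ± 0.072, 0.50 ± 0.059 and 0.41 ± 0.12 (limma adjusted p 0.87, 0.113, 4.47e-06 and 0.0206). The day 11 call was lost without control replicate 1, control replicate 2, control replicate 3 or shRNA 2 replicate 2, and with shRNA 1 alone (adjusted p from 0.0532 to 0.0631). Tcf7l1, a family member known mainly as a repressor and the most abundant of the 4 per kilobase on each day, had 4815, 4907, 5115 and 4483 in control libraries at day 7, 6666 and 6451 with shRNA 1 and 6625 and 7493 with shRNA 2. All knockdown libraries of day 7 were higher. At day 11 it had 3352, 3607, 3132 and 3785, 4239 and 3742 and 4661 and 5005, and shRNA 1 replicate 2 lay under control replicate 4. The changes at days 7 and 11 were 0.48 ± 0.057 and 0.33 ± 0.087 (adjusted p 5.71e-06 and 0.0132). At day 0 all 4 knockdown libraries of Tcf7l1 also stood above the controls, with 5784, 5882, 5985 and 5447 in control, 6813 and 7202 with shRNA 1 and 6273 and 6371 with shRNA 2, and a change of 0.20 ± 0.052 that was not called (adjusted p 0.0671).

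Lef1 (ENSMUSG00000027985, chr3:131110471-131224356, plus strand), the family member best known as an activator with β-catenin, moved in both directions. Control libraries had 515, 598, 515 and 487 normalized reads at day 0, 1469.5, 1606, 1579 and 1649 at day 3, 1359, 1283, 1271 and 1222 at day 7 and 758, 708, 669 and 739 at day 11, and the rise at day 3 was 1.49 ± 0.057 (limma adjusted p 1.73e-22). The shRNA 1 libraries had 396 and 419, 1915 and 2101, 1631 and 1648 and 507 and 360 in order of day. With shRNA 2 they had 531 and 517, 1659 and 1786, 1282 and 1499 and 630.5 and 571. Knockdown libraries lay above the controls at day 3 and under them at day 11, and shRNA 2 was the hairpin nearer to control on both days, with -0.24 against control at day 11 (adjusted p 0.0772). The changes were 0.23 ± 0.065, 0.22 ± 0.072 and -0.47 ± 0.14 at days 3, 7 and 11 (adjusted p 0.0179, 0.0191 and 0.0237) and -0.18 at day 0. At day 3 the call was lost without control replicate 1 or shRNA 1 replicate 2, and with no filter on low values, with shRNA 2 alone or without the trend and robust fit (adjusted p from 0.0512 to 0.0989). At day 7 it was lost without control replicate 4, shRNA 1 replicate 1 or shRNA 1 replicate 2, and with shRNA 2 alone (adjusted p from 0.0544 to 0.188), and at day 11 without control replicate 1, control replicate 2, control replicate 4 or shRNA 1 replicate 1, and with shRNA 2 alone (adjusted p from 0.0535 to 0.0772). An opposite-strand gene shares 13.7% of the Lef1 exon bases.

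Tcf7 (ENSMUSG00000000782, chr11:52252371-52283014, minus strand), the fourth of these factors, had few reads. No library of day 0 or 3 reached the filter, so the arms were not compared on those days, and the control time course tested Tcf7 through libraries of days 7 and 11. Control libraries had 0.842, 5.06, 4.69 and 9.12 normalized reads at day 0, 2.104, 8.46, 6.28 and 0 at day 3, 10.8, 21.3, 19.4 and 13.9 at day 7 and 4.07, 2.80, 4.75 and 14.9 at day 11. The shRNA 1 libraries had 4.62 and 2.66, 4.54 and 2.12, 42.6 and 37.1 and 29.6 and 19.3, and with shRNA 2 4.39 and 3.71, 3.00 and 4.39, 25.2 and 10.7 and 15.9 and 24.4. At day 11 all knockdown libraries were above all controls, with a change of 0.58 ± 0.15 (limma adjusted p 0.0103), or 1.95 by voom. Tcf7 was tested there through the arm in which it is high, since 4 knockdown libraries and 1 control library reached the filter, so this call is a description. At day 7 the shRNA 1 libraries were above the controls and the shRNA 2 libraries spanned them, with 0.31 ± 0.17 (adjusted p 0.143).

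**Figure D5:**
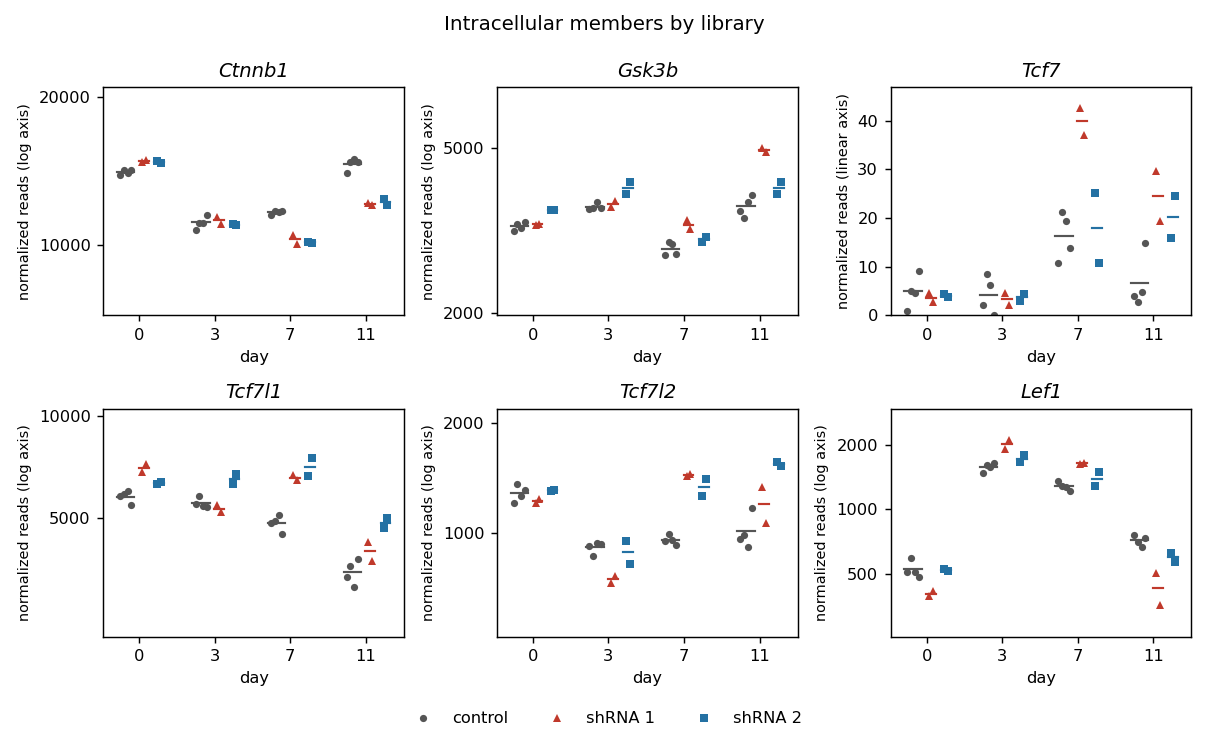
Normalized reads of Ctnnb1, Gsk3b, Tcf7, Tcf7l1, Tcf7l2 and Lef1 in each library, by day, with libraries as points and means as short lines. Axes are logarithmic except for Tcf7, whose linear axis starts at 0. Ctnnb1 is lower and Tcf7l1 and Tcf7l2 are higher in the knockdown libraries of day 7.

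The 2 hairpins did not act alike on every member. The direct test of shRNA 2 against shRNA 1 called 11 of 28 members at day 0, against 35% of all genes. On the later days, in order, it called 9 (19.6%), 6 (16.4%) and 11 (22%). With libraries rescaled to equal totals the day 7 count was 4, and 61.9% of all calls were higher with shRNA 2 in place of 45.8%. Lrp6 (ENSMUSG00000030201, chr6:134446476-134566965, minus strand) was called on all 4 days. At day 0 control libraries had 5328, 5573, 5691 and 5899.9 normalized reads, shRNA 1 libraries 4045 and 4173 and shRNA 2 libraries 6477 and 6864. At day 3 they had 6527, 6889, 6763 and 7106, 4702 and 5036 and 6643 and 6368. At day 7 they had 4874, 5389, 4899 and 4933, 3909 and 4014 and 5242 and 5503, and at day 11 4905, 4687, 5039 and 5638, 4389 and 4133 and 5054 and 5645. The shRNA 1 libraries were under every control on every day, whereas the shRNA 2 libraries lay above the controls at day 0 and within or near their range later. The difference, shRNA 2 minus shRNA 1, was 0.68 ± 0.045, 0.40 ± 0.049, 0.42 ± 0.059 and 0.32 ± 0.077 in order of day (limma adjusted p 6.93e-13, 5.91e-08, 1.38e-05 and 0.00804). With both hairpins pooled Lrp6 was called on no day, and its day 0 change of -0.099 was -0.44 (adjusted p 2.97e-10) with shRNA 1 and 0.24 (adjusted p 4.69e-05) with shRNA 2. The day 11 difference was lost without shRNA 1 replicate 2 (adjusted p 0.0658) or shRNA 2 replicate 2 (0.0874), and without the trend and robust fit (0.0608).

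At day 11 Fzd1, Dkk3 and Rspo2 were lower with shRNA 1 than with shRNA 2. Fzd1 differed by 0.45 ± 0.049 at day 0 and 0.62 ± 0.14 at day 11, shRNA 2 minus shRNA 1 (limma adjusted p 4.81e-08 and 0.0124). Its day 11 difference was lost without shRNA 2 replicate 1 (adjusted p 0.0813), and was 0.37 without shRNA 1 replicate 2. Dkk3 differed by 0.53, 0.66 and 1.04 at days 0, 7 and 11 (adjusted p 0.011, 0.0262 and 0.000948). Rspo2 differed by 1.18 ± 0.20 at day 11 (adjusted p 0.000514). Wnt4 went the other way at days 3 and 7, with -0.41 ± 0.057 and -0.56 ± 0.11 (adjusted p 1.29e-06 and 0.000683), with the shRNA 1 libraries inside or above the control range and the shRNA 2 libraries under them. Porcn was lower with shRNA 1 at day 0 by 0.36 on the log2 scale (adjusted p 5.52e-05), with 825 and 839 normalized reads against 1065 and 1092 with shRNA 2. By contrast, the differences of Wls and Ctnnb1 between the hairpins ran from 0.033 to 0.12 and from -0.029 to 0.013, and none was called.

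Whether the knockdown difference itself changed with time was tested against day 0 over all 32 libraries. Of 29 members, 4 were called at day 3 (6.57% of all genes), 11 at day 7 (29.9%) and 10 at day 11 (23.2%), or 9 of 28 without Tcf7. With 1 library left out the counts ranged from 1 to 5 at day 3, 7 to 11 at day 7 and 9 to 12 at day 11, and the calls lost are not named here. In the main fit the split was 4 higher and 0 lower at day 3, 5 and 6 at day 7 and 5 and 5 at day 11. With libraries rescaled to equal totals it was 4 and 0, 3 and 7, and 4 and 6, and the share of all calls that were higher went from 56.2%, 56.0% and 53.6% to 42.4%, 40.7% and 40.1%. Most of the calls in this test were lost with a term for the replicate number, and those that held are given only as counts. In the main fit Ctnnb1 had -0.26 ± 0.046 at day 7 and -0.32 ± 0.046 at day 11, and Wls -0.29 ± 0.061 and -0.38 ± 0.061, each called. Sfrp2 had -1.32 ± 0.27 and -0.89 ± 0.27, and Tcf7l2, in the other direction, 0.52 ± 0.12 and 0.43 ± 0.12. For Fzd7 the sign was negative at day 7 and positive at day 11, with -0.29 ± 0.10 at day 7 and 0.39 ± 0.10 at day 11 (limma adjusted p 0.0271 and 0.00407). Wnt4 had, for days 3 and 7, 0.60 ± 0.17 and 0.59 ± 0.17 (adjusted p 0.0254 and 0.0071). With the hairpins pooled, its knockdown change was called at day 0 and on no later day. At days 3 and 7 the Wnt4 libraries of the hairpins lay on opposite sides of the control mean. The hairpin under the controls was still called lower on both days when set alone against control, as given for Wnt4 above. Fzd1 was not called on any of these days, with -0.33 at day 7 (adjusted p 0.19), and for Fzd3 the difference at day 7 was -0.053 (adjusted p 0.856).

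Beyond the members, 50 other genes of the pathway were listed, of which 35 or 36 were tested in each comparison. With knockdown 3 were called at day 0 (1 higher, 2 lower, background 3.25% of all genes) and 14 at day 3 (6 and 8, 26.7%). At day 7 it was 23 (8 and 15, 47.6%), and at day 11 it was 13 (4 and 9, 33%). Their median log2 changes were 0.0064, -0.11, -0.12 and 0.012. Ccnd1, which encodes cyclin D1 and is a known β-catenin target among many other inputs, had the largest change at day 7 among these genes. Its changes of days 3, 7 and 11 were -0.46 ± 0.052, -1.57 ± 0.15 and -1.22 ± 0.11 (limma adjusted p 2.77e-05, 4.85e-05 and 3.10e-05). Tle2, a Groucho family co-repressor that binds TCF factors, had -0.55 ± 0.14, -0.99 ± 0.10 and -0.90 ± 0.16 at days 3, 7 and 11 (adjusted p 0.0139, 2.53e-06 and 0.00246). Ror1, a receptor for Wnt5a, was called lower at days 0, 7 and 11, with -0.50, -0.33 and -1.02 (adjusted p 0.00726, 0.0311 and 0.0401). Lgr4, a receptor for R-spondins, was higher early and lower at day 7, with 0.32 ± 0.044, 0.23 ± 0.042, -0.13 ± 0.050 and -0.093 ± 0.062 in order of day (adjusted p 0.00432, 0.00112, 0.0496 and 0.281). Ptk7, a co-receptor of the planar polarity branch, had -0.15, -0.46, -0.50 and -0.50, called on all days but day 0 (adjusted p 0.104, 4.95e-06, 4.42e-06 and 9.83e-05). Tpbg, an inhibitor, was likewise called lower on the 3 later days, with -0.30, -0.59 and -0.48 (adjusted p 0.000439, 9.15e-06 and 0.000115). The Wnt inhibitor Apcdd1 had -0.24, 0.21, -0.10 and 0.66 (adjusted p 0.0452, 0.0153, 0.562 and 0.00962), lower at day 0 and higher at days 3 and 11. In control cells 31 of the 35 tested were called at day 3 against day 0 (76.6% of all genes), 14 higher and 17 lower.

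Low levels kept 16 members out of every test. Axin2, a standard readout of canonical signalling, reached at most 7.46 normalized reads in any of the 32 libraries. Wnt10b, the ligand most often named as a brake on adipogenesis, had 8.42, 15.2, 3.75 and 8.29 normalized reads in control libraries at day 0, 0, 0, 1.05 and 0 at day 3, 2.95, 9.13, 12.6 and 3.46 at day 7 and 16.3, 16.8, 22.8 and 16.7 at day 11. In knockdown libraries it had 5.55 and 8.85 with shRNA 1 and 15.8 and 5.56 with shRNA 2 at day 0, and 21.4 and 13.6 and 17.0 and 18.1 at day 11. The arms overlapped on both days, and the 1 control library with a value above 0 at day 3, replicate 3, held 1 read. Wnt2b and Wnt5b reached at most 17.7 and 10.3 normalized reads, and Wnt3, Wnt7a, Wnt7b, Wnt8a, Wnt8b and Wnt9b at most 4.64. The antagonists Sfrp1, Sfrp4, Sfrp5, Frzb and Dkk2 and the R-spondin Rspo4 had at most 10.2 normalized reads. None of these 16 genes was tested, and no difference is read from their levels.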

How the data were processed

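The values are deposited log2-scale expression values, 1 per gene and library, of 32 RNA-seq libraries. Per the submitters' processing notes the authors used TopHat2 2.1.0, Bowtie2 2.2.6, SAMtools 1.3.1 and HTSeq 0.6.1. The genome build, the annotation, the strand setting of counting and the program that made the log2 values are not given in the sources used here. They follow the shape that a regularized log transform gives, which scales libraries and draws each value towards its gene's mean. Inverting that form gave whole reads within 0.1 read for 99.3% of all values, where chance gives 20%, and these rebuilt reads divided by the fitted size factor are the normalized reads. Library totals are sums of the rebuilt reads. Gene positions come from GENCODE M21 on GRCm38, matched by gene ID for all 45 members, and promoters from RefSeq.

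Comparisons were fitted to the deposited values with limma 3.58.1 in R 4.3.3, with trended and robust variances, on genes where 2 to the power of the value reached 10 in at least 4 libraries of the fit. Knockdown against control and shRNA 2 against shRNA 1 used the 8 libraries of a day, the control time course the 16 control libraries, and the test of whether the knockdown difference changed with time all 32. An alternative ran voom on the rebuilt reads, scaled by a trimmed mean of M values. The script was tested on simulated data. Other alternatives changed the filter, the scaling, the variance model, the transform, the grouping of hairpins and the libraries included, and the closing section gives their effect. The members and gene lists were chosen with earlier results of these data known. Values in every library are printed for the 14 members with the largest called knockdown change, the 8 with the largest called control change and a list of members given by name, and other pathway genes are named where they were among the 3 largest called changes of a comparison.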

Additional observations from a re-analysis of the deposited data

Results flagged for a closer look

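In 4 of 116 groups of 4 libraries, 1 library stood apart from the other 3 in a member's normalized reads, where chance gives about 1 in 20. Control replicate 4 of day 0 had 213 normalized reads of Fzd3 against 150 to 157 in the others. Control replicate 4 of day 7 had 323 of Fzd5 against 345 to 349. Control replicate 2 of day 7 had 5389 of Lrp6 against 4874 to 4933, and 34.5 of Rspo3 against 53.1 to 57.7.

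The knockdown difference in log2 value differed from that of day 0 in 25 tests of members (limma, adjusted p from 2.71e-06 to 0.0482). Against day 0, it was more positive on day 3 for Wnt11 by 0.84, Wnt4 by 0.60, Fzd5 by 0.54 and Wnt5a by 0.31. On day 7 it was more positive for Fzd5 by 0.81, Wnt4 by 0.59, Tcf7l2 by 0.52, Lef1 by 0.40 and Tcf7l1 by 0.28. For Wnt4 these values pool hairpins whose libraries lay on opposite sides of the control mean on days 3 and 7. The knockdown difference was more negative than at day 0 for other members. It was more negative on day 7 for Sfrp2 (-1.32), Fzd2 (-0.31), Fzd7 (-0.29), Wls (-0.29), Ctnnb1 (-0.26) and Axin1 (-0.17). On day 11 it was more positive for Tcf7l2 by 0.43, Fzd7 by 0.39, Lrp5 by 0.35 and Porcn by 0.34. It was more negative on day 11 for Rspo2 (-1.17), Sfrp2 (-0.89), Fzd2 (-0.42), Wls (-0.38) and Ctnnb1 (-0.32).
The day 11 value of Tcf7, 0.62, is a description, since no library of day 0 reached the filter on low values and at day 11 the knockdown arm, where Tcf7 is high, did so in 4 libraries and the control arm in 1.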

How the results depend on the processing

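Of 431 results of single members 198 were called, and 119 of these kept their call in every alternative run and 145 with each library left out in turn. The knockdown count of day 0, 3 members, was the most movable of the 4 days. It was 5 with libraries rescaled to equal totals and 12 in 1 fit of all 32 libraries, for which the share of all genes called is not given here. With the shRNAs as separate groups it was 19 (25.3% of all genes). In fits added after the data were seen it was 14 with shRNA 1 alone (34.7% of all genes) and 12 with shRNA 2 alone (17.6%). Between the hairpins the count went from 11 to 7 at day 0 and from 9 to 5 at day 3 in 1 fit of all 32 libraries, from 6 to 2 at day 7 without the trend and robust fit, and from 11 at day 11 to 7 with no filter and 5 without the trend and robust fit. The cause was not tested. Directions reversed for Axin1 between days 0 and 3 in control cells, at -0.022 with libraries rescaled, and, with shRNA 2 alone against control, for Lrp6 at day 0 (0.24) and for Wnt4 at days 3 and 7 (-0.20 and -0.28).

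With 1 library left out, knockdown counts ranged from 1 to 5, 8 to 12, 13 to 18 and 11 to 19 in order of day. At day 0 the count was 1 without control replicate 1, 2 or 3 and 5 without shRNA 2 replicate 2, and at day 11 it was 11 without control replicate 1. Hairpin counts ranged from 7 to 12, 4 to 9, 3 to 6 and 4 to 12, where the lone library of a hairpin is taken to vary like the other groups. They were 7 without shRNA 1 replicate 2 or shRNA 2 replicate 1 at day 0, 4 without shRNA 1 replicate 2 at day 3, 3 without shRNA 1 replicate 2 or either shRNA 2 library at day 7, and 4 without shRNA 1 replicate 2 or shRNA 2 replicate 1 at day 11. Counts of changed knockdown differences ranged from 1 to 5, 7 to 11 and 9 to 12 at days 3, 7 and 11. For day 3 the count was 1 without control replicate 2 of day 3 and 2 without control replicate 1 of day 3, shRNA 2 replicate 1 of day 3, shRNA 1 replicate 1 of day 0 or control replicate 3 of day 0, and for day 7 it was 7 without control replicate 2 of day 0.

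Whether the replicate numbers pair the libraries was checked only weakly. The 2 libraries of a hairpin deviate equally in opposite directions, so the check cannot exclude a pairing. Deviations of same-numbered knockdown and control libraries of a day correlated over genes with a median r of 0.042 (from -0.0052 to 0.21). For other-numbered ones the median was -0.0037 (from -0.21 to 0.14). Only the numbers 1 and 2 occur in both arms. The block leaves control replicates 3 and 4 out of the knockdown comparison, so it sets 2 controls a day against the knockdown libraries. With the replicate block the knockdown counts, in order of day, were 0, 1, 11 and 7. The share of all genes called with the block is not given here for the later days, so these counts do not set members apart from other genes. The calls that held were Fzd7 at day 3, Wnt6, Fzd1, Fzd2, Fzd3, Fzd4, Fzd5, Fzd7, Sfrp2, Wls, Tcf7l1 and Tcf7l2 at day 7, and Wnt5a, Wnt6, Fzd2, Lrp5, Sfrp2, Wls and Tcf7 at day 11. At day 0 limma then called 0 of 13216 genes, with 1067 genes and 10 members at an unadjusted p under 0.05, while voom without the block called 3 members. The counts of changed knockdown differences were 1, 4 and 2 with the block. The hairpin and control time course counts stayed within 1.5 times. Few reads limit Wnt11, Dkk3, Rspo2, Rspo3 and Tcf7, whose called knockdown changes were larger by voom than on the deposited scale.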
